A study of Mus musculus with 12 samples.

Results

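The mean response of the pregnant mouse uterus to overexpression of progesterone receptor isoform A or B was measured. For this, 8 overexpression libraries were set against 4 control libraries, which together are all 12 RNA-seq libraries of the study. A change under each isoform was not required. Uterine tissue was taken at 13.5 days post coitum. All 12 libraries came from mice with the Myh11Cre driver, and the controls carried no other allele. The PGR-A OE libraries (n = 4, genotype Myh11Cre; LSLPGRA/+) also carried 1 copy of an allele for isoform A, and the PGR-B OE libraries (n = 4, genotype Myh11Cre; LSLPGRB/+) 1 copy of an allele for isoform B. The overexpression side was the mean of the 2 group means, so each isoform weighed the same, and it was compared with the control mean for every gene. Strain and age of the mice are not given in the labels. The Myh11 promoter is active in smooth muscle, vessel walls included, so the driver is not limited to the myometrium. Whether each library stands for its own animal is not stated in the labels, and p-values therefore measure the spread between libraries, which may partly be technical.

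The progesterone receptor is a nuclear receptor that binds progesterone and then DNA, and both isoforms are made from the single gene Pgr. Isoform B has an extra amino-terminal stretch that isoform A lacks. In the pregnant uterus, progesterone acting through this receptor keeps the myometrium, the smooth muscle layer, quiet until labour. Quiescence is known to involve low levels of contraction-associated proteins such as connexin 43 and the oxytocin receptor, signalling through cyclic AMP, and control of the calcium that triggers the contractile machinery.

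Library size hardly differed, at 31872534 to 33078483 counts per library. The leading axis of a principal component analysis took up 23.0% of the variance and set PGR-A OE replicate 4 (62.4) and control replicate 4 (-31.0) apart from the other libraries (-8.87 to 7.58). The second axis took up 17.2%. On it control replicates 1, 2 and 3 lay at 28.6, 24.8 and 11.9 and control replicate 4 at -20.9. The overexpression libraries ran from -25.8 (PGR-A OE replicate 1) to 20.8 (PGR-B OE replicate 3). Marker genes of smooth muscle were abundant, with a summed level in CPM of 17302 to 22625 in control, 23139 to 32098 in PGR-A OE and 16735 to 22399 in PGR-B OE libraries. Decidual markers varied most among controls, from 1005 to 7715 CPM in sum, against 692 to 2676 CPM in PGR-A OE and 1658 to 2179 CPM in PGR-B OE libraries. The 12 fibroblast markers summed to 26014 to 26830 CPM in control, 29964 to 37574 in PGR-A OE and 30179 to 37305 CPM in PGR-B OE libraries, so all overexpression libraries lay above all controls. The 6 lymphatic endothelial markers tested lay the other way, at 334 to 379 CPM in control, 288 to 325 in PGR-A OE and 225 to 310.5 CPM in PGR-B OE libraries. The fibroblast markers include the collagen genes Col1a1 and Col3a1. Whether these marker sums reflect tissue makeup, and what part they have in the results below, was not tested. In bulk tissue fewer cells of a type and less RNA per cell cannot be told apart. CPM, the unit of the levels, is edgeR's library-scaled count.

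Of 15561 genes tested, 75 passed an adjusted p of 0.05 in edgeR's quasi-likelihood test of both overexpression groups together against control, which is 0.482% of the genes. Of these, 59 were higher (0.379% of the genes tested) and 16 lower (0.103%). The rises ran from 0.39 to 4.91 on the log2 scale with a median of 1.02, and 30 of them were at least 2-fold. The falls ran from -0.29 to -1.05 with a median of -0.45, and 1 of them, that of P2rx2, was at least 2-fold. At an unadjusted p under 0.05 there were 2191 genes (14.1%), with 1021 higher (6.56%) and 1170 lower (7.52%), so rises did not outnumber falls there. DESeq2 called 428 genes (2.75%), 216 higher and 212 lower, and these held all 75. Without control replicate 1 the count was 39, and without control replicate 2 it was 40. Without PGR-A OE replicate 4 it was 103, of which 71 were among the 75.

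Of the 75 genes, 64 showed no overlap between the 4 control and the 8 overexpression libraries, 51 of them higher and 13 lower. Among all genes tested 322 (2.07%) showed none, 1.11% upward and 0.964% downward. The 75 were called on these same libraries, so a larger share among them was built in. The genes that rose were low in control uterus, with a median of 2.03 RPKM, which also divides by gene length, against 7.85 RPKM for the genes that fell and 6.52 RPKM for all genes tested. Under 1 CPM in control were 12 of the 59 that rose (20.3%), compared with 11.2% of all genes tested. These differences were partly built in. The control level is 1 side of the contrast that chose the genes, and a gene low in control could pass the count filter through an overexpression group. In 35 of the 75 genes the call held whichever single library was left out, 31 of them higher and 4 lower. The 4 were P2rx2, Chst11, Fam135a and Gstm5. Exons of 25 of the 75 genes overlap another gene model, and because the use of strand is not given their counts are uncertain. Among the genes named these are Asic4, Vwce, Muc4, Slco2a1, Col4a3, Col15a1, Wfdc6b, Zfp651, Gstm5, Cpeb2, Tmem258, Tmtc4, Zbtb33, Zbtb11 and Dusp11.

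**Figure D1:**
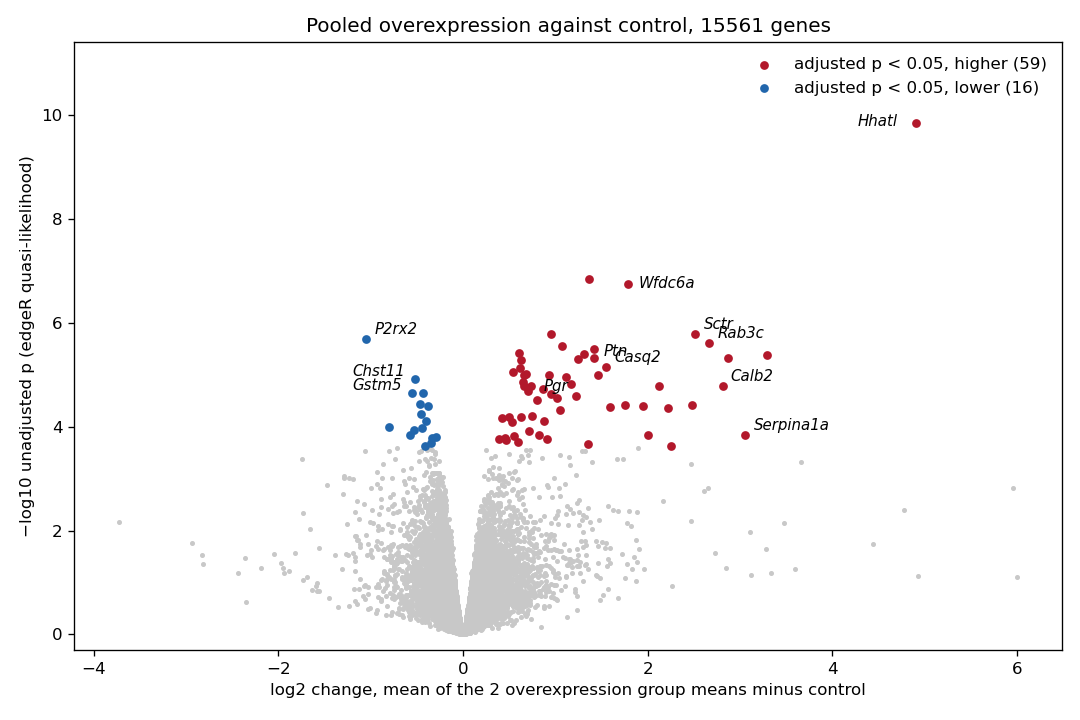
Log2 change of the mean of both overexpression groups against control (x axis) and -log10 of the unadjusted p (y axis) for 15561 genes, with 59 genes higher (red) and 16 lower (blue) at an adjusted p under 0.05. Hhatl stands alone at a log2 change of 4.91, and only P2rx2 among the falls reaches -1.05.

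The first check of the labels was Pgr itself (chromosome 9, 8899833 to 8968611). Its level was 142, 126, 110.5 and 106 CPM in the control libraries, 166, 185, 194 and 255 CPM in PGR-A OE and 248, 218, 237 and 188 CPM in PGR-B OE. Every overexpression library lay above every control library, with means of 211 ± 33.1 CPM (SD, n = 8) and 121 ± 16.5 CPM (SD, n = 4). The pooled change was 0.80 on the log2 scale (SE 0.13, edgeR adjusted p = 0.0120). Permuting the 12 labels of its log2 CPM exactly, in 495 ways and two-sided, gave p = 0.00404, the smallest this can give. The adjusted p was 0.0521 without control replicate 2 and likewise 0.0521 without control replicate 3. The counts join transcripts of the added alleles with those of the endogenous gene. Between the isoform groups Pgr differed by 0.16 (95% interval -0.14 to 0.46, PGR-B OE minus PGR-A OE).

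Fkbp5 encodes a cochaperone of steroid receptors and is a textbook target of progesterone and glucocorticoids. It held 58.0 to 80.3 CPM in control, 72.1 to 88.5 in PGR-A OE and 119 to 168 CPM in PGR-B OE libraries, so only the PGR-B OE libraries lay clear of the controls. The pooled rise was 0.59 (SE 0.11, edgeR adjusted p = 0.0437), with 0.24 for isoform A and 0.94 for isoform B against the same controls. The call held in 4 of the 12 fits that leave out a library (without control replicate 4, PGR-A OE replicate 3, PGR-B OE replicate 2 or PGR-B OE replicate 3), and the highest adjusted p was 0.196. Of 23 progesterone-responsive genes tested, Pgr and Fkbp5 rose and none fell, where 0.379% of all genes tested were higher. Pgr is the gene that was overexpressed, so its rise was built in and Fkbp5 was the only other call. At an unadjusted p under 0.05, 6 of the 23 were higher and 0 lower, against 6.56% and 7.52% of all genes tested. The median change was 0.12 beside -0.00 over all genes tested, and 0.07 without PGR-A OE replicate 4 or PGR-B OE replicate 1. Cdkn1c, a cell cycle inhibitor of that list, stood at 0.71 (adjusted p = 0.0659), and Hand2, a stromal transcription factor, at 0.48 (adjusted p = 0.236). Of 18 coregulators and chaperones of the receptor, Fkbp5 was the 1 past the threshold, and the list median was -0.07. Among 11 steroid receptors tested, Pgr, the gene that was overexpressed, was the 1 past the threshold.

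The largest rise of the pooled response was that of Hhatl (chromosome 9, 121784016 to 121792507, minus strand), a relative of the acyltransferase that attaches palmitate to hedgehog proteins and a gene best known from heart and skeletal muscle. It held 0.580, 0.318, 0.726 and 0.387 CPM in the control libraries, 22.8, 14.4, 14.3 and 18.7 CPM in PGR-A OE and 14, 10.6, 11.5 and 16.4 CPM in PGR-B OE. The lowest overexpression library was thus far above the highest control library. The change was 4.91 on the log2 scale (SE 0.26, edgeR adjusted p = 2.16e-06), a 30.0-fold rise, with 5.12 for isoform A and 4.70 for isoform B. The isoform difference of -0.42 had a 95% interval of -0.86 to 0.03. Of 16 hedgehog pathway genes tested, Hhatl was the 1 past the threshold, and 14 of the 16 had a positive change, with a median of 0.20 beside -0.00 over all genes tested. Without PGR-B OE replicate 1 the list median was 0.04.

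The neighbourhood of Hhatl was examined after its values were seen. Zfp651, a zinc-finger gene 12273 bases away, rose by 0.39 (SE 0.07, edgeR adjusted p = 0.0395), a call that held in 5 of the 12 fits that leave out a library, with a highest adjusted p of 0.178. Ccdc13, 5119 bases away, changed by 2.47 without passing (adjusted p = 0.0693), from 12 counts over the 4 control libraries to 148 over the 8 others, with no overlap between them. Klhl40, a striated muscle gene 197 bases away, stood at 1.25 (adjusted p = 0.158). Nktr, 27172 bases away, stood at -0.07 (adjusted p = 0.622). The 250 bases before the RefSeq start of Hhatl are shown because this gene led the response, with those of Rab3c, Casq2 and Ptn, which are described further on. They are RefSeq sequences of GRCm38.p6, 5′ to 3′ on the strand of each gene. For Hhatl and Casq2 the RefSeq start is that of the gene positions printed here, while for Rab3c it lies 790 and for Ptn 41 bases inside the gene, so those stretches lie wholly or partly within it. Capitals mark AGAACA or TGTTCT, the hexamer of the receptor's binding element on either strand.
Hhatl (chr9:121792508-121792757, minus strand): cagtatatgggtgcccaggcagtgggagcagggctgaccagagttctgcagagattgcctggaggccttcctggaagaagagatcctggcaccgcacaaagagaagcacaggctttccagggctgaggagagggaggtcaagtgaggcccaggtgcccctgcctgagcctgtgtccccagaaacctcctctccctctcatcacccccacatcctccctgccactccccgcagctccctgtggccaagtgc
Casq2 (chr3:102086165-102086414, plus strand): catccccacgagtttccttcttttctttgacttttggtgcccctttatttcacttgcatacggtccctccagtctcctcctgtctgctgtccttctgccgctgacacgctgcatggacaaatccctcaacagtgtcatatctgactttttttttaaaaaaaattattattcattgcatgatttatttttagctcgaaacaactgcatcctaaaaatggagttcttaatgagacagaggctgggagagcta
Rab3c (chr13:110280207-110280456, minus strand): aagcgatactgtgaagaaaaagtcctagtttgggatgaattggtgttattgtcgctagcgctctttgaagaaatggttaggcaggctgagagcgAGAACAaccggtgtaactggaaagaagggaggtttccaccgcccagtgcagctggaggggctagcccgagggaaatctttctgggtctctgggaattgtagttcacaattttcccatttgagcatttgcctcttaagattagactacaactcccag
Ptn (chr6:36810180-36810429, minus strand): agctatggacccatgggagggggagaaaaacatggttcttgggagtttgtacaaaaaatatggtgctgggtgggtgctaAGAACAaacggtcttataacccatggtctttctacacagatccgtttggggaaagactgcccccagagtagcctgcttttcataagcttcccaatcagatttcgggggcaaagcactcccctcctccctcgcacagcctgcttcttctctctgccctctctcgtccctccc

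RefSeq windows of 300 bases, from 250 before to 50 after a start, were given for 58 of the 75 genes, as 74 windows. The full palindrome GNACANNNTGTNC was in 0 of these 74, against 0.475% of 32851 windows of all genes. The hexamer TGTTCT, searched on both strands, was in 13 of the 74 (17.6%), against 19.0% of all windows and 13.0% of the windows of genes tested. Among genes that rose it was in 8 of 57 windows and among genes that fell in 5 of 17. The windows of Hhatl and Casq2 held neither motif. A match here is a run of letters, and binding was not measured.

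Sctr (chromosome 1, 120006894 to 120063536), the receptor for secretin, couples to the G protein that raises cyclic AMP. Its level was 1.42, 0.604, 1.10 and 0.447 CPM in control, 3.93, 3.91, 5.01 and 4.85 in PGR-A OE and 6.11, 4.37, 8.02 and 5.11 CPM in PGR-B OE libraries. Every overexpression library lay above every control library, and the rise was 2.51 (SE 0.30, edgeR adjusted p = 0.00502), with 2.31 for isoform A and 2.72 for isoform B. It was the 1 gene past the threshold among 18 relaxant receptors tested, whose median was 0.13, and 0.06 without control replicate 4. Other genes of cyclic AMP handling were picked out after their values were seen, and no list of such genes was counted. Pde3b, a phosphodiesterase that breaks down cyclic AMP, rose by 0.65 (SE 0.09, edgeR adjusted p = 0.00837), from 41.2 ± 2.09 CPM (SD, n = 4) to 64.5 ± 8.06 CPM (SD, n = 8). Prkar2b, a regulatory subunit of protein kinase A, rose by 0.74 (SE 0.11, edgeR adjusted p = 0.00843), from 11.6 ± 1.56 to 19.4 ± 2.14 CPM. Pde7b, another cyclic AMP phosphodiesterase, rose by 0.53 (edgeR adjusted p = 0.0228), a call that held in 7 of the 12 fits that leave out a library, with a highest adjusted p of 0.123. In none of the 3 did control and overexpression libraries overlap, and in all 3 the 95% interval of the isoform difference lay within 1.5-fold.

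Casq2 (chromosome 3, 102086415 to 102146514) encodes calsequestrin, the calcium-binding protein that buffers calcium inside the sarcoplasmic reticulum, in the form typical of cardiac muscle. It held 13.6, 19.2, 32.2 and 19.0 CPM in control, 88.5, 71.6, 112 and 77.2 in PGR-A OE and 36.0, 40.1, 49.6 and 48.1 CPM in PGR-B OE libraries. The 3 groups did not overlap one another. The pooled rise was 1.55 (SE 0.21, edgeR adjusted p = 0.00627), with 2.06 for isoform A and 1.05 for isoform B. Casq2 was the 1 gene past the threshold among 20 genes of the sarcoplasmic reticulum calcium store, whose median was 0.01. With Hhatl it made 2 of 17 striated muscle genes tested, whose median was 0.06 (0.004 to 0.16 with 1 library left out). In that list Nppa, the atrial natriuretic peptide, stood at -0.93 and Actc1, cardiac actin, at -1.15, and neither passed. Further calls that bear on muscle cells were picked out after their values were seen. Myzap, a protein of cardiac cell junctions, rose by 0.61 (SE 0.08, edgeR adjusted p = 0.00627), and S100a6, a calcium-binding protein, rose by 0.66 (SE 0.09, edgeR adjusted p = 0.00691), from 406 ± 45.5 CPM (SD, n = 4) to 641 ± 67.2 CPM (SD, n = 8).

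**Figure D2:**
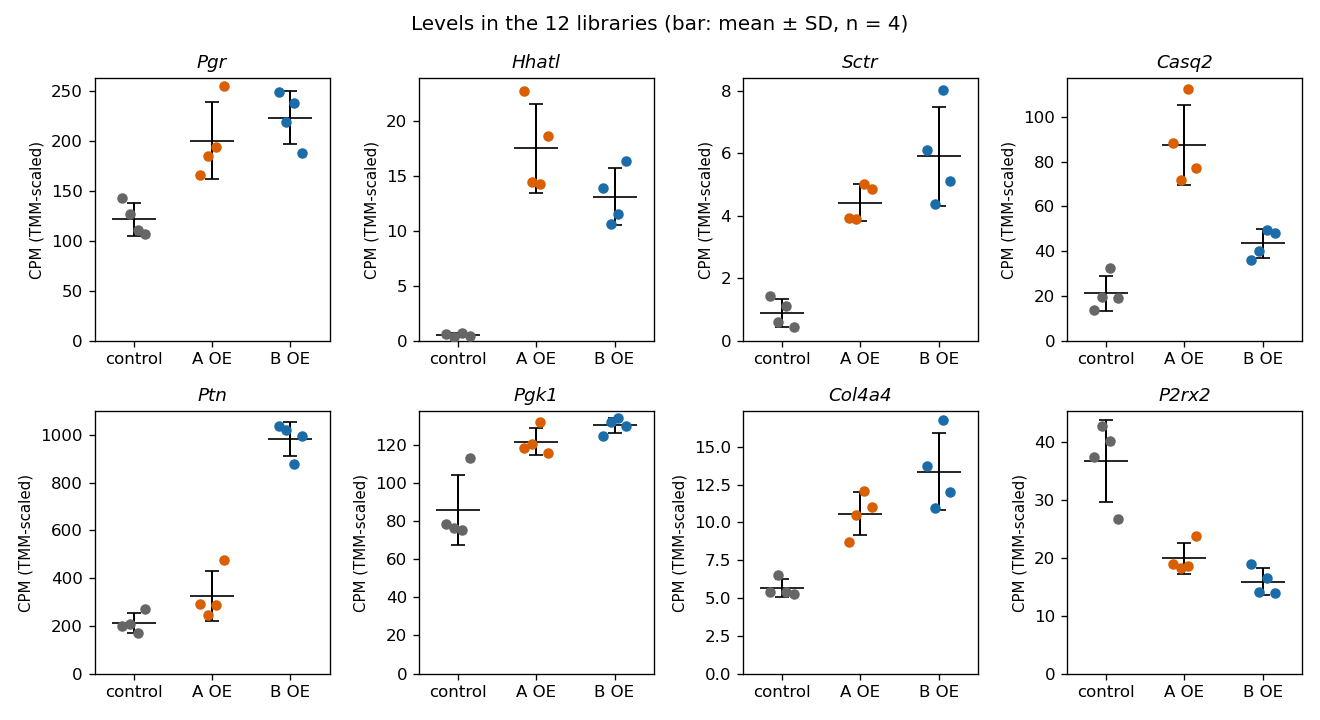
Level in CPM (y axis, linear from 0) in the 4 libraries of each group for 8 genes, with the mean and SD (n = 4) as bars. Hhatl, Sctr and Col4a4 rise under both isoforms, Casq2 is higher under isoform A (71.6 to 112 CPM) than under isoform B (36.0 to 49.6 CPM), Ptn rises mainly under isoform B, control replicate 4 is the high control point of Pgk1 at 113 CPM, and P2rx2 falls under both.

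The largest fall was that of P2rx2 (chromosome 5, 110339812 to 110343212), a cation channel opened by extracellular ATP. It held 37.5, 42.7, 40.1 and 26.7 CPM in control, 19.0, 18.2, 18.6 and 23.9 in PGR-A OE and 18.9, 14, 16.5 and 14 CPM in PGR-B OE libraries. Every overexpression library lay below the lowest control, with means of 17.9 ± 3.17 CPM (SD, n = 8) and 36.7 ± 7.04 CPM (SD, n = 4). The change was -1.05 (SE 0.13, edgeR adjusted p = 0.00506), a 2.07-fold fall, with -0.88 for isoform A and -1.21 for isoform B. Of 15 purinergic receptors tested it was the 1 past the threshold, and the median of the list was 0.04 (0.01 to 0.11 with 1 library left out). The nearest libraries across the groups were PGR-A OE replicate 4 and control replicate 4, and a fit without both gave -1.22 (adjusted p = 0.000239).

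Several other ion channel genes rose from low levels. Kcnc4, a fast voltage-gated potassium channel, went from 0.967 ± 0.242 CPM (SD, n = 4) to 3.29 ± 1.11 CPM (SD, n = 8), a rise of 1.76 (SE 0.28, edgeR adjusted p = 0.0143). Its adjusted p was 0.0565 without control replicate 1 and 0.0538 without control replicate 3. Kcnt1, a potassium channel activated by sodium, held 0.126 to 0.447 CPM in control, 0.992 to 3.00 in PGR-A OE and 0.580 to 1.03 CPM in PGR-B OE libraries, without overlap between control and overexpression. Its rise of 2.00 (SE 0.37, edgeR adjusted p = 0.0363) passed in 3 of the 12 fits that leave out a library (without PGR-A OE replicate 2, PGR-A OE replicate 4 or PGR-B OE replicate 3), with a highest adjusted p of 0.137. Kcnt1 was the 1 gene past the threshold among 23 potassium channel genes of the list used here, whose median was 0.12, and 0.03 without PGR-A OE replicate 4. Kcnip2, a subunit that modulates potassium channels and was picked out after its values were seen, held 2.41 to 4.99 CPM in control and 7.85 to 10.5 CPM in the overexpression libraries, a rise of 1.25 (SE 0.16, edgeR adjusted p = 0.00506).

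Of 24 genes best known from neurons, a list drawn up with earlier results of these data known, 12 were tested. Of these, 3 rose, from low levels (Calb2, Rab3c and Asic4), where 0.379% of all genes tested were higher. The larger share was partly built in, by the way the list was drawn up and because genes low in control could pass the count filter through the overexpression libraries. The list median was 0.20. Rab3c (chromosome 13, 110054187 to 110280996), a small GTPase of synaptic vesicles, held 0.516, 0.286, 0.884 and 0.328 CPM in control, 5.56, 3.22, 3.60 and 3.44 in PGR-A OE and 1.65, 2.81, 2.77 and 3.21 CPM in PGR-B OE libraries. It rose by 2.67 (SE 0.33, edgeR adjusted p = 0.00506) without overlap. Calb2 (chromosome 8, 110137502 to 110168210) encodes calretinin, a calcium-binding protein that is also a marker of the mesothelium, the outer lining of the uterus. It held 0.355, 0.318, 0.568 and 0.208 CPM in control, 2.04, 1.17, 0.899 and 0.587 in PGR-A OE and 9.29, 4.40, 4.48 and 4.07 CPM in PGR-B OE libraries, a rise of 2.81 (SE 0.41, edgeR adjusted p = 0.00843). The lowest overexpression library, PGR-A OE replicate 4, lay just above the highest control. Calb2 was the 1 of 8 mesothelial markers past the threshold, while 6 of the 8 had a negative change and the median was -0.17. That median was 0.08 without control replicate 2 and -0.38 without control replicate 4. Asic4, a member of the acid-sensing channel family, rose by 2.12 (SE 0.31, edgeR adjusted p = 0.00843), and Astn1, a surface protein of migrating neurons, by 1.59 (SE 0.26, edgeR adjusted p = 0.0143). The call of Astn1 was lost without control replicate 1 (adjusted p = 0.0817) or control replicate 2 (adjusted p = 0.0723).

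The 12 largest rises named were taken only from called genes without overlap and with a mean of 1 CPM or more. The remaining genes among these 12 were Vat1l, Vwce, Klhdc8a and Wfdc6a. Vat1l rose by 2.22 (edgeR adjusted p = 0.0149), with 2.86 for isoform A and 1.58 for isoform B. Vwce, a secreted protein with von Willebrand and EGF domains, rose by 1.95 (edgeR adjusted p = 0.0143), from 6.38 ± 3.66 CPM (SD, n = 4) to 26.1 ± 11.8 CPM (SD, n = 8). Without control replicate 1 the adjusted p of Vat1l was 0.0764 and that of Vwce 0.0760, and without control replicate 2 they were 0.0665 and 0.0878. Klhdc8a, a kelch-domain protein, rose by 2.25 (edgeR adjusted p = 0.0495), a call that held in 2 of the 12 fits that leave out a library, those without PGR-A OE replicate 4 or PGR-B OE replicate 2, and the highest adjusted p was 0.216. Wfdc6a (chromosome 2, 164579519 to 164585447), a gene of the whey acidic protein family, varied little within a group. It held 0.451, 0.445, 0.631 and 0.476 CPM in control, 2.39, 2.01, 2.15 and 2.06 in PGR-A OE and 1.45, 1.15, 1.45 and 1.59 CPM in PGR-B OE libraries, a rise of 1.79 (SE 0.17, edgeR adjusted p = 0.000938). Its relative Wfdc6b, 28074 bases away and not among these 12, rose by 3.30 (edgeR adjusted p = 0.00506). It went from 4 counts over the 4 control libraries to 91 over the 8 others. How reads shared by these relatives were counted is not given in the sources used here.

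**Figure D3:**
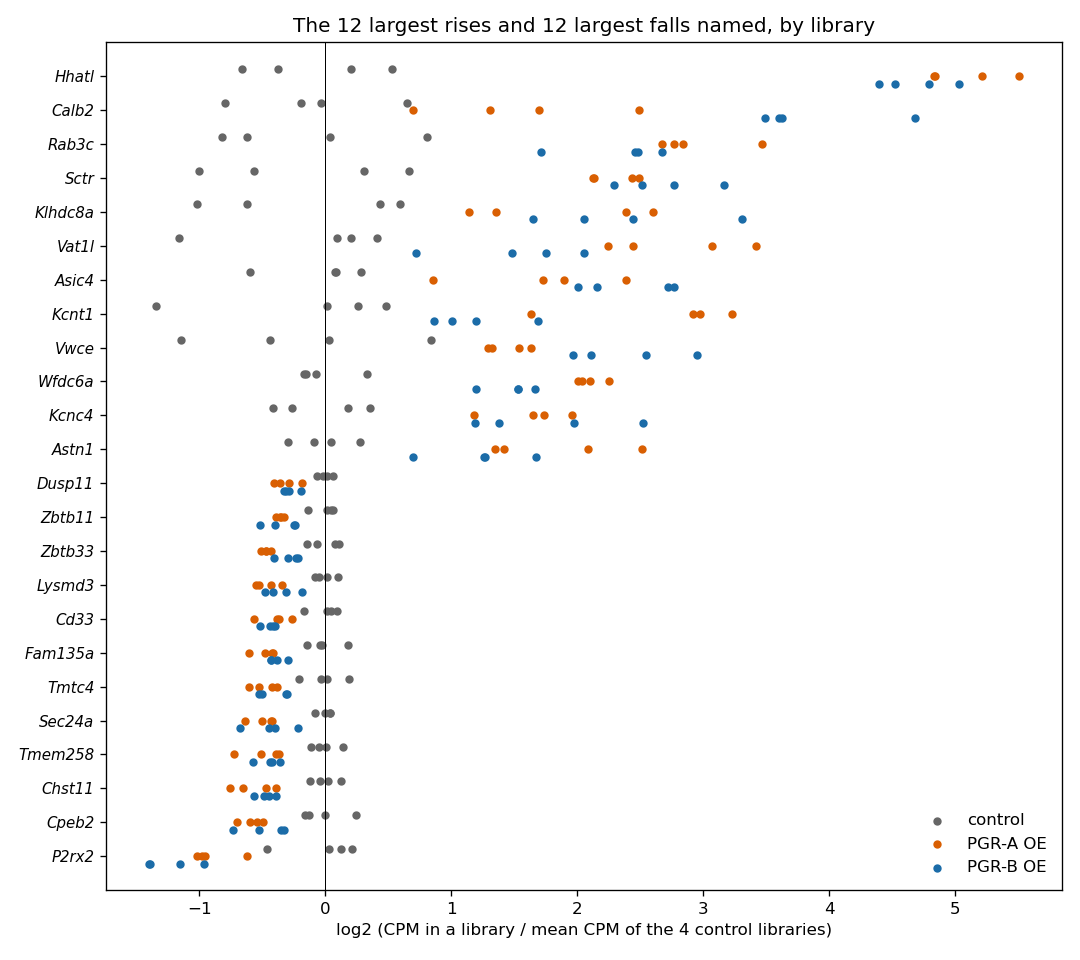
Log2 of the CPM in each library over the mean of the 4 control libraries (x axis) for the 12 largest rises and 12 largest falls named (y axis), with control (grey), PGR-A OE (orange) and PGR-B OE (blue) libraries. The 24 genes were chosen to have no overlap between grey and coloured points, and the falls other than P2rx2 stay within 1 log2 unit of the control mean.

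Matrix genes held a neighbouring pair. Col4a4 (chromosome 1, 82448423 to 82586849) and Col4a3 (chromosome 1, 82586921 to 82722059), picked out after their values were seen, encode collagen chains of specialised basement membranes and are transcribed away from each other with 71 bases between their starts. Col4a4 held 5.42, 6.52, 5.40 and 5.27 CPM in control, 8.71, 10.5, 12.1 and 11 in PGR-A OE and 13.7, 10.9, 16.8 and 12 CPM in PGR-B OE libraries. Col4a3 held 8.12, 8.30, 6.66 and 8.37 CPM in control, 16.3, 15.1, 19.5 and 13.7 in PGR-A OE and 12.7, 11.9, 20.8 and 17.2 CPM in PGR-B OE libraries. Both genes were higher in all 8 overexpression libraries than in any control library. The changes were 1.07 for Col4a4 (SE 0.13, edgeR adjusted p = 0.00506) and 1.02 for Col4a3 (SE 0.16, edgeR adjusted p = 0.0117). The call of Col4a3 was lost when control replicate 1, 2 or 3 was left out (adjusted p of 0.0565, 0.0521 and 0.0501). The sequence between the 2 starts is shown because both genes moved together. It is 69.0% G or C and holds neither motif searched.
Between Col4a4 and Col4a3 (chr1:82586850-82586920, minus strand, GRCm38.p6, RefSeq): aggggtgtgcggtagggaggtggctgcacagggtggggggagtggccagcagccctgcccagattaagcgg

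Of 33 extracellular matrix genes tested, Col14a1 and Col15a1 rose and none fell, where 0.379% of all genes tested were higher and 0.103% lower. At an unadjusted p under 0.05, 12 of the 33 were higher and 2 lower, against 6.56% and 7.52% of all genes tested. The change was positive in 25 and negative in 8, with a median of 0.20. Among the 8, Fn1 stood at -0.61 without passing (edgeR adjusted p = 0.152). Col15a1, a collagen next to basement membranes, went from 494 ± 41.4 CPM (SD, n = 4) to 876 ± 193 CPM (SD, n = 8), a rise of 0.82 (SE 0.15, edgeR adjusted p = 0.0363). Col14a1, which associates with collagen fibrils, went from 216 ± 9.54 CPM (SD, n = 4) to 306 ± 31.0 CPM (SD, n = 8), a rise of 0.50 (SE 0.09, edgeR adjusted p = 0.0199). The call of Col14a1 was lost without control replicate 1, 2 or 4, with adjusted p of 0.105, 0.0987 and 0.0551. That of Col15a1 held in 4 of the 12 fits (without PGR-A OE replicates 2, 3 or 4 or PGR-B OE replicate 3), with a highest adjusted p of 0.175. The fibroblast markers, summed, lay higher in all overexpression libraries as given above, with a median change of 0.17 (0.02 without both PGR-A OE replicate 4 and control replicate 4) and no single marker past the threshold. Col1a1, the main fibrillar collagen, stood at 0.42 (adjusted p = 0.108) with no overlap between control and overexpression libraries. Chst11 (chromosome 10, 82985498 to 83195900), which adds sulphate to the chondroitin chains of matrix proteoglycans, fell. It held 102, 92.4, 97.6 and 109.9 CPM in control, 72.6, 59.5, 64.1 and 76.8 in PGR-A OE and 67.9, 71.9, 76.5 and 73.7 CPM in PGR-B OE libraries, a change of -0.51 (SE 0.07, edgeR adjusted p = 0.00760).

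Further genes that rose, of metabolism and transport among others, were picked out after their values were seen. Slco2a1, the transporter that takes prostaglandins into cells, rose by 1.31 (SE 0.17, edgeR adjusted p = 0.00506), from 39.9 ± 5.55 CPM (SD, n = 4) to 103 ± 39.1 CPM (SD, n = 8). Muc4, a mucin of epithelial surfaces, rose by 1.46 (SE 0.20, edgeR adjusted p = 0.00691), while none of 15 epithelial and gland markers passed and their median was -0.04 (-0.18 to 0.06 with 1 library left out). Lct, the lactase gene, rose by 0.93 (SE 0.13, edgeR adjusted p = 0.00691) by nearly the same amount under each isoform, with a difference of 0.02 (95% interval -0.29 to 0.33). Smaller rises were those of Abat, which breaks down the transmitter GABA, at 0.61 (edgeR adjusted p = 0.00506) and Mpi, which links glucose and mannose metabolism, at 0.55 (edgeR adjusted p = 0.00691).

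Pgk1, a glycolytic kinase, held 78.7, 76.4, 75.2 and 113 CPM in control, 119, 121, 132 and 116 in PGR-A OE and 125, 132, 134 and 130.0 CPM in PGR-B OE libraries. All 8 overexpression libraries lay above all controls, and control replicate 4 stood well above the other 3 controls. The rise was 0.55 (SE 0.10, edgeR adjusted p = 0.0363). Without control replicate 4 it was 0.71 (adjusted p = 0.000671), and the call held otherwise only without PGR-A OE replicate 4, with a highest adjusted p of 0.178. Of 19 hypoxia and glycolysis genes tested, Pgk1 was the 1 past the threshold and 13 had a negative change, with a median of -0.08 that became 0.02 without control replicate 4. Pgk1 was 1 of 6 genes that passed in the pooled comparison but in neither isoform's own comparison with the same controls, where 0.655% of the genes passed for isoform A and 0.308% for isoform B. The others were Klhdc8a, Cd33, Dusp11, Zbtb11 and a gene model without a name.

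The falls were small apart from that of P2rx2, and in 13 of the 16 control and overexpression libraries did not overlap. After P2rx2, the 11 largest falls without overlap ran from -0.53 for Cpeb2 to -0.29 for Dusp11. Cpeb2, which binds the polyadenylation element of messenger RNAs, went from 22.1 ± 2.94 CPM (SD, n = 4) to 15.3 ± 1.56 CPM (SD, n = 8). Fam135a (chromosome 1, 24011093 to 24100341) went from 49.9 ± 4.84 to 37.1 ± 2.22 CPM, a change of -0.43 (SE 0.07, edgeR adjusted p = 0.0100), and its call held whichever library was left out. Further falls were those of Tmem258, a subunit of the complex that attaches sugar chains to proteins, at -0.47, Sec24a, a coat protein of vesicles leaving the endoplasmic reticulum, at -0.46, and Tmtc4, an enzyme that adds mannose to proteins, at -0.44. Of 18 unfolded protein response genes tested, 0 passed in edgeR and 0 were at an unadjusted p under 0.05. Zbtb33, which binds methylated DNA, stood at -0.38 and Zbtb11, a zinc-finger protein, at -0.35. Dusp11, a phosphatase acting on RNA, Lysmd3 at -0.40 and Cd33, a lectin of myeloid cells, at -0.41 made up the rest.

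Most of these calls were lost in 1 or more of the fits that leave out a library. Of the 12 falls named, P2rx2, Chst11 and Fam135a passed in all 12 fits that leave out a library. Tmem258 lost its call without control replicate 2 (adjusted p = 0.0665) or control replicate 3 (adjusted p = 0.0538), Zbtb33 without control replicate 1 (adjusted p = 0.0925) or control replicate 2 (adjusted p = 0.0974), and Sec24a without control replicate 1, 2 or 4 (highest adjusted p 0.0987). Lysmd3 passed in 7, Tmtc4 in 6, Cpeb2 in 5, Dusp11 and Zbtb11 in 2 each and Cd33 in 1 of the 12 fits. The 16 falls became 6 or 5 when control replicate 1 or 2 was left out, 9 or 7 when PGR-A OE replicate 1 or 2 was, and 9 when PGR-B OE replicate 4 was. They became 26 when PGR-A OE replicate 4 was left out and 42 when PGR-B OE replicate 2 was.

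How far the isoforms differed in the 75 genes was examined with the difference between them, PGR-B OE minus PGR-A OE, which does not use the controls. Of the 75 genes, 36 had a 95% interval of this difference inside 1.5-fold either way, 23 of the genes that rose and 13 of those that fell. Among these 36 were Pgr, Abat, Lct, Pde3b, Prkar2b, Col4a3, Pgk1, Chst11 and Fam135a. On the log2 scale this window reaches 0.585 either way, while the median fall was -0.45. For changes smaller than the window, lying inside it does not show that both isoforms changed. The share of all genes tested that lies inside it was not counted, so the 36 cannot be set against a background. In 7 of the 75 genes the isoforms differed past an adjusted p of 0.05, while 18 of all genes tested (0.116%) did. The other 32 genes fell in neither class, Hhatl, Sctr, Casq2 and P2rx2 among them. At an unadjusted level, the 95% interval excluded 0 in 33 of the 75 genes, and in 8.04% of all genes tested. DESeq2 put the isoform difference past the threshold in 15 of the 75, and in 0.81% of all genes tested.

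**Figure D4:**
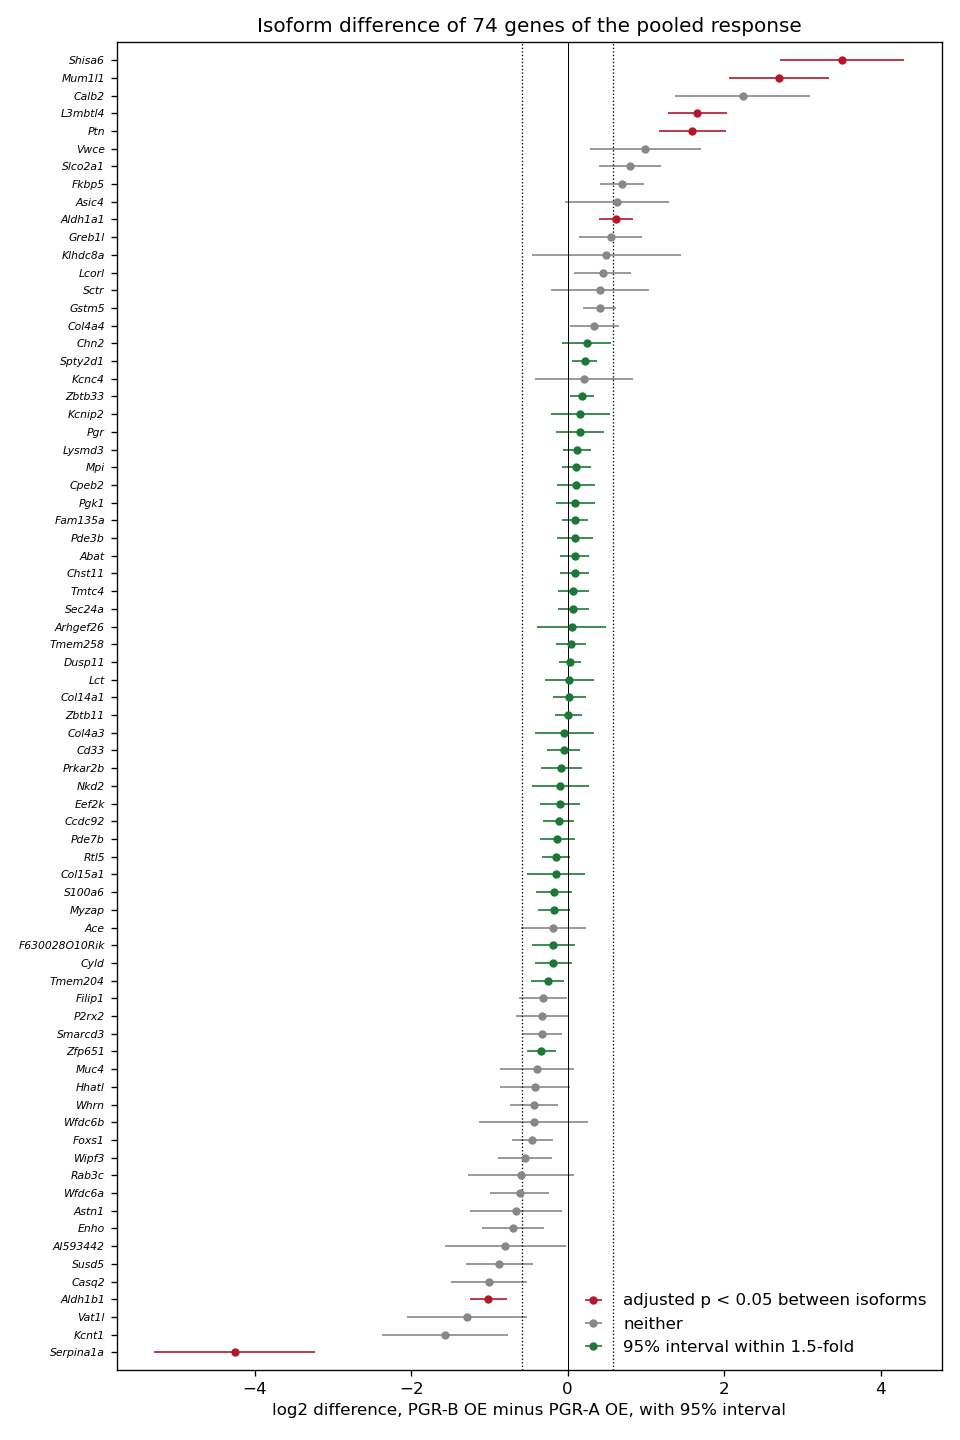
Log2 difference between PGR-B OE and PGR-A OE (x axis, points with 95% intervals) for 74 of the 75 genes (y axis), with dotted lines at 1.5-fold. The 36 genes whose interval lies inside the lines are green, the 7 with an adjusted p under 0.05 are red and the other 31 are grey, and the red points run from Serpina1a at -4.25 to Shisa6 at 3.51.

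In the 7 genes that differed, the pooled mean stood for a change that was mostly that of 1 isoform. Ptn (chromosome 6, 36714929 to 36810220) encodes pleiotrophin, a growth factor that binds heparin. It held 201, 207, 170.1 and 269.7 CPM in control, 293, 243, 289 and 477 in PGR-A OE and 1037, 1021, 879 and 995 CPM in PGR-B OE libraries. PGR-A OE overlapped the controls and PGR-B OE did not. The pooled rise of 1.42 (SE 0.18, edgeR adjusted p = 0.00506) joined 0.62 for isoform A and 2.21 for isoform B, which differed by 1.59 (adjusted p = 0.00487). Ptn was the 1 gene past the pooled threshold among 35 secreted growth factors, whose median was 0.08 (0.06 to 0.17 with 1 library left out).

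Mum1l1 held 1.86 to 2.65 CPM in control, 1.45 to 3.44 in PGR-A OE and 8.49 to 20.8 CPM in PGR-B OE libraries, so its pooled rise of 1.35 (edgeR adjusted p = 0.0460) held no rise under isoform A, whose value was -0.00. It was the 1 gene of the 75 whose isoform values had opposite signs. L3mbtl4, a chromatin protein, rose by 1.11 with 0.29 for isoform A and 1.94 for isoform B. Shisa6, a partner of glutamate receptors, held 12 counts over the 4 control libraries, and its isoform values were 0.72 and 4.23. Aldh1a1, which makes retinoic acid from retinal, rose by 0.46 with 0.15 and 0.77, and was the 1 gene past the pooled threshold among 18 of retinoid handling. In the other direction, Aldh1b1, a mitochondrial aldehyde dehydrogenase, held 27.0 to 32.5 CPM in control, 61.1 to 81.8 in PGR-A OE and 32.6 to 37.9 CPM in PGR-B OE libraries. Serpina1a, an alpha-1 antitrypsin gene with near-identical relatives that make its counts uncertain, held 6 counts over the 4 control libraries, with isoform values of 5.19 and 0.93. The pooled calls of Mum1l1 and Serpina1a each passed in 3 and that of Aldh1a1 in 2 of the 12 fits that leave out a library. Shisa6 lost its call without control replicate 1 (adjusted p = 0.0565) or control replicate 3 (adjusted p = 0.0538).

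Genes of contraction did not pass in the pooled comparison. Of 13 contraction-associated genes tested 0 passed, with 2 at an unadjusted p under 0.05 (14.1% of all genes tested were) and a median of -0.08. The sign of this median turned when control replicate 3 (0.07) or control replicate 4 (0.003) was left out. Oxtr, the oxytocin receptor, held 6.22, 7.70, 9.66 and 7.80 CPM in control, 4.84, 4.42, 3.37 and 14.1 in PGR-A OE and 4.57, 6.25, 5.35 and 3.92 CPM in PGR-B OE libraries. PGR-A OE replicate 4 was the highest of all 12 libraries, and of the other 7 overexpression libraries only PGR-B OE replicate 2 reached above the lowest control. The change was -0.44 (SE 0.32, edgeR adjusted p = 0.582), and -0.77 without PGR-A OE replicate 4 (adjusted p = 0.0572). Gja1, which encodes connexin 43, stood at -0.15 (adjusted p = 0.678) and Ptgs2, an enzyme of prostaglandin synthesis, at 0.64 (adjusted p = 0.469). The repressors Zeb1 and Zeb2 stood at 0.08 (adjusted p = 0.783) and -0.06 (adjusted p = 0.833). For Gja1 and Zeb2 the sign turned when control replicate 4 or control replicate 2, respectively, was left out, to 0.01 in both.

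The series title names the phospholipase C pathway, which releases calcium in response to contractile agonists. Of 35 genes of phospholipase C and Gq signalling tested, 0 passed in the pooled comparison, 4 higher and 2 lower were at an unadjusted p under 0.05 (against 6.56% and 7.52% of all genes tested), and the median was -0.01. Plcl2, a relative of phospholipase C without its enzyme activity, held 28.4 to 39.8 CPM in control, 28.4 to 44.8 in PGR-A OE and 47.3 to 52.9 CPM in PGR-B OE libraries. Its pooled change was 0.30 (SE 0.13, edgeR adjusted p = 0.321), with 0.07 for isoform A and 0.53 for isoform B. Plcd4, a phospholipase C isoenzyme, stood at -0.63 (adjusted p = 0.106), Itpr2, a calcium release channel, at 0.32 (adjusted p = 0.246), and Prkcb, a protein kinase C, at 0.24 (adjusted p = 0.276).

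Across the 39 gene lists, 16 held a gene past the threshold and 23 held none, and list medians ran from -0.40 to 0.25. With 1 library left out in turn, the median turned sign in 18 of the 39 lists, each within 0.175 of 0, among them those of steroid receptors, phospholipase C signalling, the calcium store and retinoid handling. Of 14 cell type lists, the mesothelial one alone held a called gene, Calb2. All 6 lymphatic endothelial markers tested were negative, with a median of -0.40 and 4 at an unadjusted p under 0.05, where 7.52% of all genes tested were lower at that level. Lyve1, the hyaluronan receptor of lymphatic vessels, stood at -0.40 (adjusted p = 0.152) and Prox1, their master transcription factor, at -0.52 (adjusted p = 0.158). Of 20 smooth muscle markers, 19 were positive with a median of 0.16, which joined 0.33 for isoform A and -0.07 for isoform B, and was 0.07 without PGR-A OE replicate 4. All 15 endothelial markers were positive with a median of 0.10 (0.15 without control replicate 4), and 23 of 30 Wnt pathway genes were positive with a median of 0.25, where Wnt5b stood at -0.93 (adjusted p = 0.0886). The haemoglobin genes Hba-a1, Hba-a2, Hbb-bs and Hbb-bt of the erythroid list had no count in any library.

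**Figure D5:**
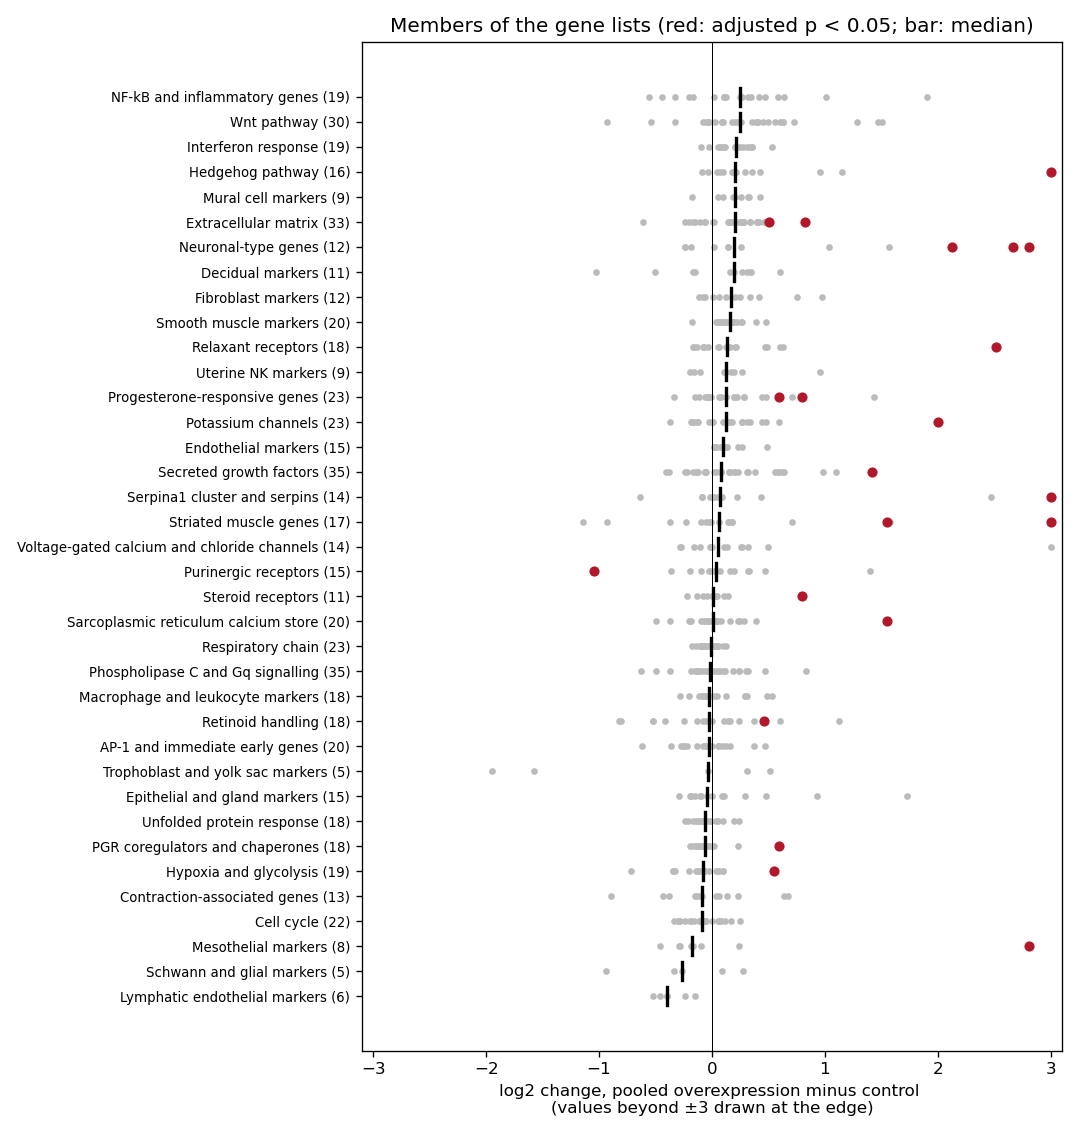
Pooled log2 change (x axis) of the members of each gene list with at least 5 members tested (y axis, number tested in brackets), with genes at an adjusted p under 0.05 in red, other members in grey and the list median as a black bar. Medians lie between -0.40 (lymphatic endothelial markers) and 0.25, and most lists hold at most 1 red point.

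A set of 28 genes passed in every setting tried, that is in all 12 fits that leave out a library and under the 6 other settings listed with the processing. It held 25 genes that rose, among them Hhatl, Sctr, Rab3c, Asic4, Wfdc6a, Slco2a1, Muc4, Kcnip2, Col4a4, Lct, Abat, Mpi, Pde3b, Prkar2b, S100a6, Myzap, Foxs1 and Cyld, and 3 that fell, P2rx2, Chst11 and Fam135a. Chosen after their values were seen, Foxs1, a forkhead factor, rose by 0.95 (SE 0.11, edgeR adjusted p = 0.00502), and Cyld, an enzyme that removes ubiquitin chains, by 0.66 (edgeR adjusted p = 0.00843). Of the 28, 1 was a gene model without a name.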

How the data were processed

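The deposited data are 1 table from the authors that gives, for each gene and each of the 12 libraries, a raw whole-number count of reads. The submitters' processing notes name DESeq2, featureCounts, STAR 2.7.0f, Bowtie2 2.2.5 and Subread 1.6.4, and the builds mm10 and GRCm38, without the role of each. Per the labels' protocols, reads were paired and 75 bp long, from a TruSeq RNA kit. Strand use, annotation and the treatment of reads that match several genes are not given in the sources read for this work. The table held 24964 genes, 4393 of them without a count.

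Counts were fitted in R 4.3.3 with edgeR 4.0.16 (filterByExpr on the 3 groups, TMM scaling, robust quasi-likelihood, all 12 libraries in 1 fit). The contrast was the mean of the 2 overexpression coefficients minus control, with Benjamini-Hochberg adjustment over 15561 genes. Each isoform against control, and PGR-B OE minus PGR-A OE with its 95% interval, came from the same fit. The script was tested on simulated data. The 6 other settings were DESeq2 1.42.0, limma 3.58.1 (voom), DESeq2 size factors in edgeR, no low-count filter, a replicate block, and the 8 overexpression libraries as 1 group. A fit without control replicate 4 and PGR-A OE replicate 4 was added after seeing the data. Positions are from the GENCODE M21 annotation of GRCm38 by exact symbol.

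The comparison, gene lists and named genes were chosen with earlier results of these data known. The rule named Pgr, Fkbp5, Oxtr, Plcl2, Gja1, Ptgs2, Zeb1 and Zeb2. It added the 12 largest rises and 12 largest falls among called genes without overlap whose mean was 1 CPM or more, the genes past the threshold in the pooled but in neither single comparison, those that differed between isoforms, and up to 4 members of each list described. Nameless gene models were counted and not named, and some results are not reported here. Cell type lists overlap other lists in some genes.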

Additional observations from a re-analysis of the deposited data

Results flagged for a closer look

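In 7 genes of the pooled response the isoform groups differed from each other in edgeR's test of the difference (PGR-B OE minus PGR-A OE, log2 scale). The difference was 3.51 for Shisa6, 2.7 for Mum1l1, 1.66 for L3mbtl4, -1.01 for Aldh1b1 and -4.25 for Serpina1a (each adjusted p = 0.00204), 1.59 for Ptn (adjusted p = 0.00487) and 0.62 for Aldh1a1 (adjusted p = 0.0353).

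A single library stood apart from the other 3 of its group in 11 of 309 groups examined (3.56%), where chance alone gives about 1 in 20. The high ones were PGR-B OE replicate 3 for Fkbp5 (168 CPM), PGR-B OE replicate 1 for Calb2 (9.29 CPM), PGR-A OE replicate 4 for P2rx2 (23.9 CPM), control replicate 4 for Pgk1 (113 CPM) and control replicate 2 for Col4a4 (6.52 CPM). The low ones were control replicate 1 for Aldh1b1 (27.0 CPM), control replicate 2 for Col15a1 (433 CPM), control replicate 3 for Col4a3 (6.66 CPM), PGR-B OE replicate 2 for Muc4 (25.0 CPM), control replicate 4 for Plcd4 (2.00 CPM) and PGR-A OE replicate 3 for Lgr5 (0.193 CPM). No library held more than 2 of them.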

How the results depend on the processing

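The pooled count of 75 genes (59 higher, 16 lower) was 428 with DESeq2 (216 and 212) and 125 (77 and 48) in the fit that leaves out both control replicate 4 and PGR-A OE replicate 4. Leaving out 1 library in turn gave 39 to 104 genes, 33 to 77 higher and 5 to 42 lower. The genes of the pooled response that differed between isoforms numbered 15 with DESeq2, 6 to 8 with a library left out and 9 with both left out. The difference of Pgr in log2 CPM stayed between 0.73 and 0.88. Gja1 and Zeb2, neither past the threshold, ranged from -0.22 to 0.011 and from -0.18 to 0.0072, positive only without control replicate 4 for Gja1 and control replicate 2 for Zeb2. With the replicate number as a block 52 genes passed (41 higher, 11 lower), 47 of them among the 75. Libraries with the same number correlated between -0.26 and 0.19 in their deviations from the group mean. Those with unlike numbers in different groups correlated between -0.36 and 0.35. With so wide a spread this check cannot tell whether the numbers pair the samples. The cause of these shifts was not tested. limma voom gave 77 genes, DESeq2 size factors 74, no filter 73 and 1 overexpression group of 8 libraries 58. Genes low in control rest on few counts.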
